A study of Mus musculus with 8 samples.

Results

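The genes described here were 10 components of the NRF2 antioxidant pathway, picked from the deposited expression table by gene symbol: Nfe2l2, Keap1, Slc7a11, Gclc, Gclm, Gsr, Txnrd1, Prdx1, Srxn1 and Nqo1. All 10 were found among the 24067 genes of the table. The samples were primary articular chondrocytes, the cells that make cartilage matrix, taken from tibial plateaus and femoral condyles (the knee ends of the leg bones) of ICR mice at 5 days of age and grown in 10% serum under 3% O2. They had received 50 nM of miR-204 (4 libraries) or of the control small RNA miR-Ctrl (4 libraries) for 24 h and were harvested 24 h later. Strain, age, oxygen level, dose and timing were the same in both groups. Nothing in the labels states that the 4 libraries of a group were separate cultures or animals. The p-values therefore reflect only variation among these libraries, which may be technical.

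NRF2, encoded by Nfe2l2, is a transcription factor that binds the antioxidant response element together with small MAF proteins. KEAP1 captures NRF2 in the cytoplasm and hands it to a CUL3 ubiquitin ligase, and oxidants or electrophiles that modify KEAP1 cysteines let NRF2 accumulate. NRF2 is thus controlled largely at the level of protein, and its target transcripts, which encode enzymes of glutathione supply, thioredoxin recycling and quinone reduction, are commonly read as its output. miR-204 is a small RNA that lowers transcripts whose 3′ untranslated region (3′ UTR) pairs with its seed. The comparison asked whether the mimic moved these transcripts.

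The sequences that link the mimic to these genes are the miRNA and its seed matches. The mature miR-204-5p of mouse (RefSeq, GRCm38.p6, chr19:22750610-22750631, plus strand) is shown with the seed, bases 2 to 8, in capitals. The arm in the mimic is not named in the labels, and only this arm was searched.
miR-204-5p: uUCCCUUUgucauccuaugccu

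Searching 1 3′ UTR per gene, the longest in the annotation, Prdx1 held an 8mer match, Slc7a11 and Nqo1 each held a 7mer-A1 match, and Keap1, Gclm, Txnrd1 and Srxn1 held 6mer matches. No match was found for Nfe2l2, Gclc and Gsr. Among 10700 expressed genes with an annotated 3′ UTR, 24.1% held a 7mer or 8mer and 12.8% a 6mer at best. The 4 matches shown are the 3 of at least 7 bases and that of Srxn1, the gene with the lowest p-value below; capitals mark the bases that pair with the seed or stand opposite base 1. They read along the transcript in mm10, at chr4:116700548-116700577 (plus strand), chr3:50368848-50368876 (minus), chr8:107388470-107388498 (minus) and chr2:152109299-152109326 (plus).
Prdx1 8mer: gcctggtctttAAAGGGAAaaaaaggcttc
Slc7a11 7mer-A1: atgccacaaagAAGGGAAattttaatgct
Nqo1 7mer-A1: gtttagggcagAAGGGAAttgctcaaagt
Srxn1 6mer: tctttattcttAAGGGAggtctgcctct

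The other sequence feature examined was the core of the antioxidant response element, written TGACNNNGC, in the window from 250 bases before to 50 bases after each annotated start. RefSeq windows were found for 8 of the 10 genes, all but Gclc and Gsr. At least 1 core, on either strand, was present in windows of 5 of these 8 (Nfe2l2, Gclm, Txnrd1, Prdx1 and Srxn1), against 14.0% of 27025 genes with a window. The AP-1 motif TGANTCA, which can overlap the core, was present in Prdx1 and Srxn1 and in 8.97% of all genes with a window. Prdx1 (chr4:116685349-116685648, plus strand) and Srxn1 (chr2:152105274-152105573, plus strand) are printed whole because they had the largest differences between groups; capitals mark the cores and the AP-1 matches. In Prdx1 the core GCTGAGTCA and an AP-1 match overlapped, 133 bases before the start.
Prdx1 start region: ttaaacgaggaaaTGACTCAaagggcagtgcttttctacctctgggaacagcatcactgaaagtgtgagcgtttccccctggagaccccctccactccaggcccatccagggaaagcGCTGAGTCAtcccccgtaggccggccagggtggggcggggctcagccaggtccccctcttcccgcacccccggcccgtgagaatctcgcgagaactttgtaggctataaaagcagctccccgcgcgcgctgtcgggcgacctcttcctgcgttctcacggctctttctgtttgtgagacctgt
Srxn1 start region: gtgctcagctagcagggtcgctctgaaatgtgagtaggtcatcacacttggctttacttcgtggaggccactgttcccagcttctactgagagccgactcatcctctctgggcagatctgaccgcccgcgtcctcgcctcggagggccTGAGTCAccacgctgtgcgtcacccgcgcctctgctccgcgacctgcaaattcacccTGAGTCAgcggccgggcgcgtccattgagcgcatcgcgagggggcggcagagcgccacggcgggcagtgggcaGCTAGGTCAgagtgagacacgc

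The cores of Gclm, Txnrd1 (at 1 of 3 annotated starts) and Nfe2l2 began 134, 92 and 240 bases before the start. The stretches printed around them are chr3:122245403-122245451 (plus strand), chr10:82859094-82859142 (plus strand) and chr2:75704875-75704913 (minus strand). A match here describes letters only and does not show that a factor was bound.
Gclm core: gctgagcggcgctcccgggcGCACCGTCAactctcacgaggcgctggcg
Txnrd1 core: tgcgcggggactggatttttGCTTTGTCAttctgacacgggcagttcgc
Nfe2l2 core: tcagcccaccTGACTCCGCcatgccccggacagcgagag

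Before the comparison, both replicate 2 libraries stood apart from the other 6. Their depth, read from the steps between low values and relative to miR-Ctrl replicate 1, was 0.798 (miR-204) and 0.772 (miR-Ctrl), against 0.929 to 1 elsewhere. Acan, the aggrecan core protein gene, reached 407 FPKM (miR-204) and 386 FPKM (miR-Ctrl) in them, while the other 6 libraries held 959 to 1710 FPKM. Chondrocyte markers were all expressed (9 of 9 at a mean of at least 1 FPKM), while all 5 endothelial and all 5 erythroid markers stayed below 0.5 FPKM in every library. Libraries of equal number resembled each other, so each result is also given from a fit with the replicate number as a block.

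The NRF2 genes changed little after miR-204. In the test without the block, 0 of the 10 genes passed an adjusted p of 0.05 by limma, and 0 reached an unadjusted p under 0.05. Over all 11612 genes tested 0.0258% were higher and 0.181% lower at the adjusted threshold, and 8.59% had an unadjusted p under 0.05. In the fit with the block, Srxn1 rose and no other of the 10 passed in either direction (5 had an unadjusted p under 0.05, as did 35.6% of all genes). The background of that fit was 12.4% of genes higher and 2.83% lower, so 1 of 10 is near it. The median log2 fold change of the 10 genes was 0.074, against 0.064 for all genes tested, and 7 of 10 were above 0, against 74.1% of all genes. Without replicate 2, 2 of the 10 (Srxn1 and Prdx1) were higher with the block and 0 lower, against 24.5% and 4.64% of all genes. Groups overlapped in every one of the 10; over all genes, 4.32% lay wholly higher and 1.58% wholly lower.

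**Figure D1:**
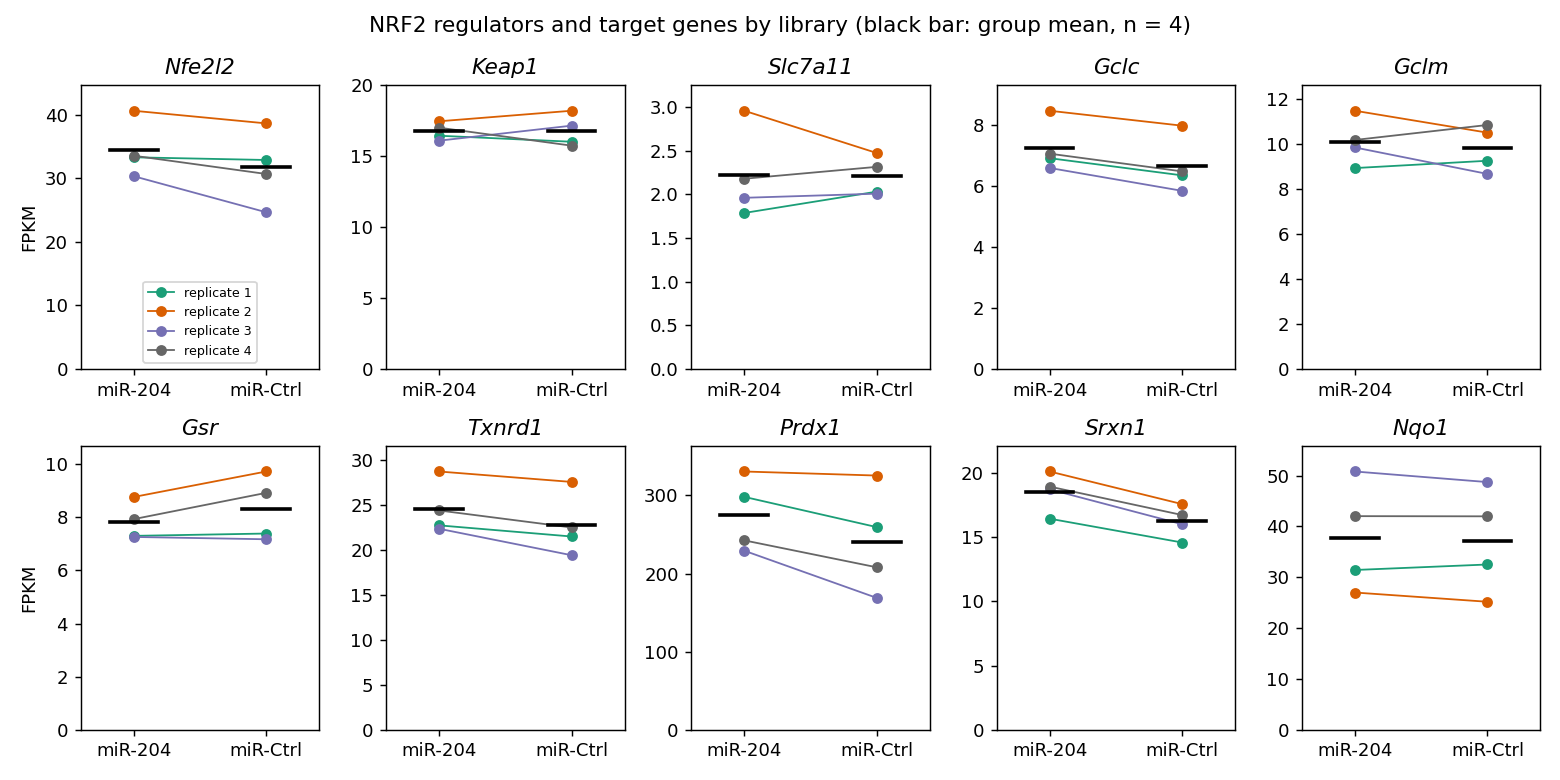
FPKM of the 10 genes in each library, miR-204 left of miR-Ctrl, with lines joining libraries of equal replicate number and black bars at the group means (n = 4). The levels differ more between replicate numbers than between groups, and the 4 lines of Srxn1 slope the same way by 0.16 to 0.21 on the log2 scale.

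Among the regulators, Nfe2l2 (gene ID 18024, chr2:75675513-75704641, minus strand) had 33.3, 40.6, 30.3 and 33.5 FPKM in miR-204 libraries 1 to 4, against 32.9, 38.6, 24.6 and 30.7 FPKM in miR-Ctrl libraries 1 to 4. The miR-204 library was the higher one in all 4 pairs, most clearly in pair 3, but the groups overlapped. The log2 fold change was 0.13 ± 0.14 (SE), adjusted p = 0.850, and with the block adjusted p = 0.135 with a 95% interval of 0.0025 to 0.25. It was 0.061 with median-centred libraries, 0.014 without miR-Ctrl replicate 3 and 0.22 without miR-Ctrl replicate 2.

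Keap1 (gene ID 50868, chr9:21229730-21239361, minus strand) had 16.4, 17.5, 16.1 and 17.0 FPKM in miR-204 libraries 1 to 4, against 16.0, 18.2, 17.1 and 15.7 FPKM in miR-Ctrl libraries 1 to 4. It was the steadiest of the 10, with pairs 1 and 4 higher and pairs 2 and 3 lower with miR-204. Its log2 fold change was −0.00069 (adjusted p = 0.999, with the block 0.993), and the blocked 95% interval ran from −0.11 to 0.11. The ratio of Nfe2l2 to Keap1 FPKM averaged 2.05 ± 0.192 in miR-204 libraries and 1.89 ± 0.310 in miR-Ctrl libraries (SD, n = 4 each), higher with miR-204 in 3 of 4 pairs.

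Glutathione supply begins with Slc7a11 (gene ID 26570, chr3:49892526-50443614, minus strand), the cystine importer subunit, which was the lowest of the 10. It had 1.79, 2.96, 1.96 and 2.18 FPKM in miR-204 libraries 1 to 4, against 2.03, 2.48, 2.01 and 2.32 FPKM in miR-Ctrl libraries 1 to 4. Only pair 2 was higher with miR-204. Its log2 fold change was −0.0041 ± 0.12 (SE; adjusted p = 0.999, with the block 0.973). A stretch of 373 bases of its longest annotated transcript matched alpha-tubulin genes such as Tuba1b at 96.2% identity, and how reads from it were counted is not known.

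Gclc (gene ID 14629, chr9:77754535-77794485, plus strand) and Gclm (14630, chr3:122245557-122270732, plus strand) encode the catalytic and modifier subunits of glutamate-cysteine ligase, which makes the first bond of glutathione. Gclc had 6.92, 8.48, 6.60 and 7.07 FPKM in miR-204 libraries 1 to 4, against 6.36, 7.99, 5.85 and 6.49 FPKM in miR-Ctrl libraries 1 to 4. It was higher with miR-204 in 4 of 4 pairs, by 0.077 to 0.15 on the log2 scale, with overlapping groups. Its log2 fold change was 0.11 ± 0.10 (SE), adjusted p = 0.821 and with the block 0.0820. It was 0.046 with median-centred libraries (with the block adjusted p = 0.437), 0.043 without miR-204 replicate 2 and 0.19 without miR-Ctrl replicate 2.

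Gclm had 8.94, 11.5, 9.85 and 10.2 FPKM in miR-204 libraries 1 to 4, against 9.26, 10.5, 8.68 and 10.9 FPKM in miR-Ctrl libraries 1 to 4. Unlike those of Gclc, its pairs were split, higher in 2 and lower in 2; whether the subunits differ in response was not tested. The log2 fold change of Gclm was 0.038 (adjusted p = 0.955, with the block 0.650), and it was −0.026 with median-centred or quantile-normalized libraries. The ratio of Gclc to Gclm FPKM was 0.719 ± 0.0465 in miR-204 libraries and 0.680 ± 0.0664 in miR-Ctrl libraries (SD, n = 4 each).

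Gsr (gene ID 14782, chr8:33652523-33698163, plus strand), the reductase that returns oxidized glutathione to its reduced form, had the lowest fold change of the 10. Its levels were 7.30, 8.77, 7.26 and 7.93 FPKM in miR-204 libraries 1 to 4, against 7.39, 9.73, 7.17 and 8.92 FPKM in miR-Ctrl libraries 1 to 4. Pairs 1, 2 and 4 were lower with miR-204 and pair 3 slightly higher. Gsr had a log2 fold change of −0.072 ± 0.10 (SE), adjusted p = 0.894 and with the block 0.294. It was −0.14 with median-centred libraries (with the block adjusted p = 0.0994), −0.13 without miR-Ctrl replicate 3 and −0.00013 without miR-Ctrl replicate 2.

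In the thioredoxin branch, Srxn1 (gene ID 76650, chr2:152105516-152111376, plus strand) encodes sulfiredoxin, which repairs over-oxidized peroxiredoxins. It had 16.5, 20.1, 18.7 and 19.0 FPKM in miR-204 libraries 1 to 4, against 14.6, 17.6, 16.0 and 16.7 FPKM in miR-Ctrl libraries 1 to 4. Every pair was higher with miR-204, and the 4 differences lay close together, from 0.16 to 0.21 on the log2 scale. The means were 18.6 ± 1.54 FPKM with miR-204 and 16.2 ± 1.27 FPKM with miR-Ctrl (SD, n = 4 each). Without the block the adjusted p was 0.582 (unadjusted 0.0505). With the block Srxn1 rose 1.14-fold (log2 fold change 0.18, 95% interval 0.10 to 0.26, adjusted p = 0.0205).

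The call for Srxn1 was close to the threshold. With the block it was lost under median-centred libraries (log2 fold change 0.12, adjusted p = 0.0723) and quantile normalization (0.12, adjusted p = 0.0715). It was also lost without replicate 1, 3 or 4 (adjusted p = 0.0882, 0.0801 and 0.114) and held without replicate 2 (adjusted p = 0.0158). The log2 fold change was 0.19, 0.17 and 0.19 without replicates 1, 3 and 4. Over all genes those 3 fits called 137, 264 and 88 higher, against 1436 in the blocked fit of all libraries.

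Prdx1 (gene ID 18477, chr4:116685544-116700822, plus strand), a peroxiredoxin that reduces hydrogen peroxide and is a substrate of sulfiredoxin, was the most abundant of the 10. It had 298, 331, 229 and 242 FPKM in miR-204 libraries 1 to 4, against 259, 325, 169 and 208 FPKM in miR-Ctrl libraries 1 to 4. The difference was 0.20, 0.44 and 0.22 on the log2 scale in pairs 1, 3 and 4, but 0.023 in pair 2. Prdx1 had a log2 fold change of 0.22 ± 0.21 (SE), adjusted p = 0.823 and with the block 0.0705. Leaving out miR-Ctrl replicate 3 gave 0.066, and leaving out miR-Ctrl replicate 2 gave 0.38. Without both replicate 2 libraries the blocked value was 0.29 with adjusted p = 0.0153, in a fit where 24.5% of all genes were higher. Annotated processed pseudogenes Gm21399 and Gm7204 match it at 98.3% and 97.5% identity over 597 bases, so its reads may have been split.

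Txnrd1 (gene ID 50493, chr10:82833951-82897712, plus strand), the cytosolic thioredoxin reductase, had 22.7, 28.7, 22.3 and 24.4 FPKM in miR-204 libraries 1 to 4, against 21.5, 27.5, 19.4 and 22.5 FPKM in miR-Ctrl libraries 1 to 4. All 4 pairs were higher with miR-204, with overlapping groups. Txnrd1 had a log2 fold change of 0.11 ± 0.12 (SE), adjusted p = 0.845 and with the block 0.0936. With median-centred libraries it was 0.046 (with the block adjusted p = 0.418), without miR-204 replicate 2 0.035 and without miR-Ctrl replicate 2 0.20.

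Nqo1 (gene ID 18104, chr8:107388225-107403206, minus strand), a quinone reductase widely used as a readout of NRF2, had 31.4, 27.0, 50.8 and 42.0 FPKM in miR-204 libraries 1 to 4, against 32.5, 25.2, 48.7 and 42.0 FPKM in miR-Ctrl libraries 1 to 4. Libraries of equal number nearly coincided while the numbers lay far apart. The log2 fold change was 0.028 ± 0.25 (SE), adjusted p = 0.993. The block narrowed the error to 0.038 (adjusted p = 0.650), with a 95% interval from −0.065 to 0.12, that is 0.956-fold to 1.09-fold. It was −0.037 with median-centred and −0.047 with quantile-normalized libraries.

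**Figure D2:**
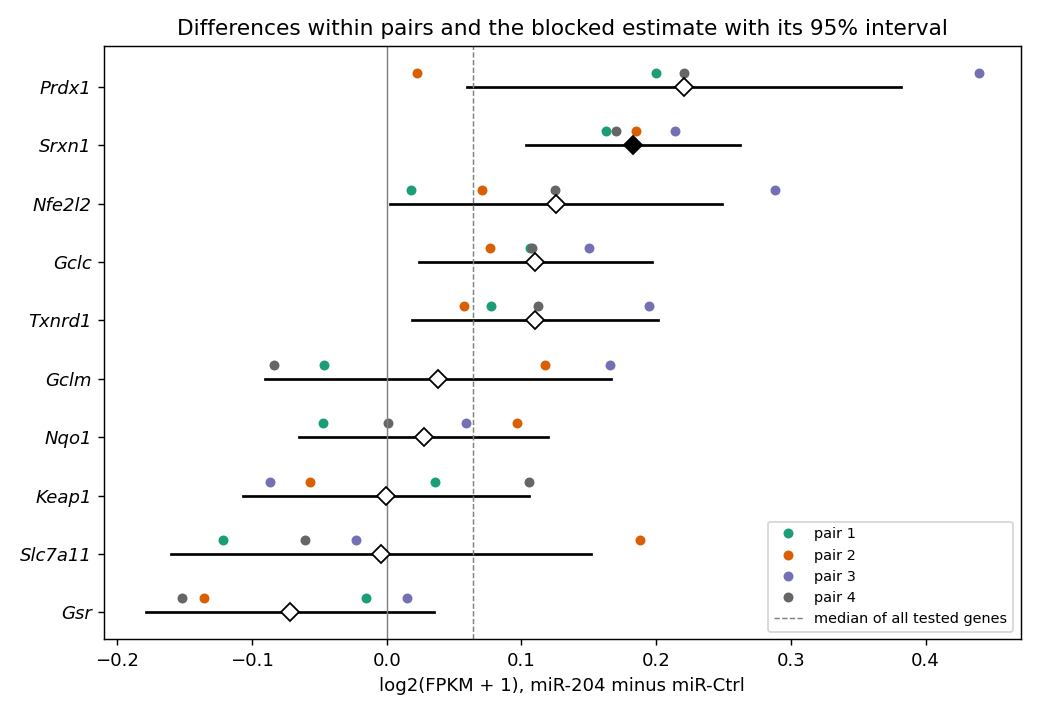
Difference in log2(FPKM + 1), miR-204 minus miR-Ctrl, within each pair of equal number (coloured points), with the blocked estimate (diamond, filled where the adjusted p was under 0.05) and its 95% interval; the dashed line is the median of all tested genes at 0.064. Srxn1 is the only filled diamond, and Nfe2l2, Gclc, Txnrd1 and Prdx1 have 4 positive pairs each without passing.

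Taking the pairs as counts, 5 of the 10 genes (Nfe2l2, Gclc, Txnrd1, Prdx1 and Srxn1) were higher with miR-204 in all 4 pairs and 0 were lower in all 4. Of all genes tested, 33.9% were higher in all 4 pairs and 7.44% lower. By pair, the median of the 10 genes was 0.027, 0.074, 0.16 and 0.11 in pairs 1 to 4, against 0.052, 0.044, 0.097 and 0.069 for all genes.

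By share of variance, the 10 genes varied more with the replicate number than with the transfected RNA. The shares are not scaled for 4 numbers against 2 groups, and the larger number of classes takes up more variance without any effect. Differences between numbers held between 52.4% (Srxn1) and 99.2% (Nqo1) of each gene's variance on the log2 scale, with a median of 84.2%, against a median of 73.6% for all genes tested. Differences between miR-204 and miR-Ctrl held 47.1% of the variance of Srxn1 and at most 14.6% of that of the other 9. The median of this share was 8.16% for the 10 genes, against 10.2% for all genes tested. In replicate number 2, 9 of the 10 genes were at their highest, between 1.08-fold (Keap1) and 1.42-fold (Prdx1) over the mean of the other 3 numbers on the log2(FPKM + 1) scale. Nqo1 was the exception, at 0.651-fold. The share of all genes tested that were highest in number 2 is not given here. The 9 of 10 can therefore not be read as particular to these genes. Summed FPKM was also highest in number 2, at 483721 (miR-204) and 490818 (miR-Ctrl), against 416560 to 452710 in the other 6 libraries. These values are descriptions of 2 libraries that differed in more than lower depth and low Acan. Mmp13 was at 908 (miR-204) and 1628 FPKM (miR-Ctrl) in them, against 3.66 to 54.8 FPKM in the other 6. Sod2 was at 110 and 124 FPKM, against 15.2 to 20.9 FPKM. Fth1 was at 6449 and 7149 FPKM, against 1244 to 2299 FPKM. These 3 genes were picked after their values were seen. The part of such differences in the pattern was not tested.

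**Figure D3:**
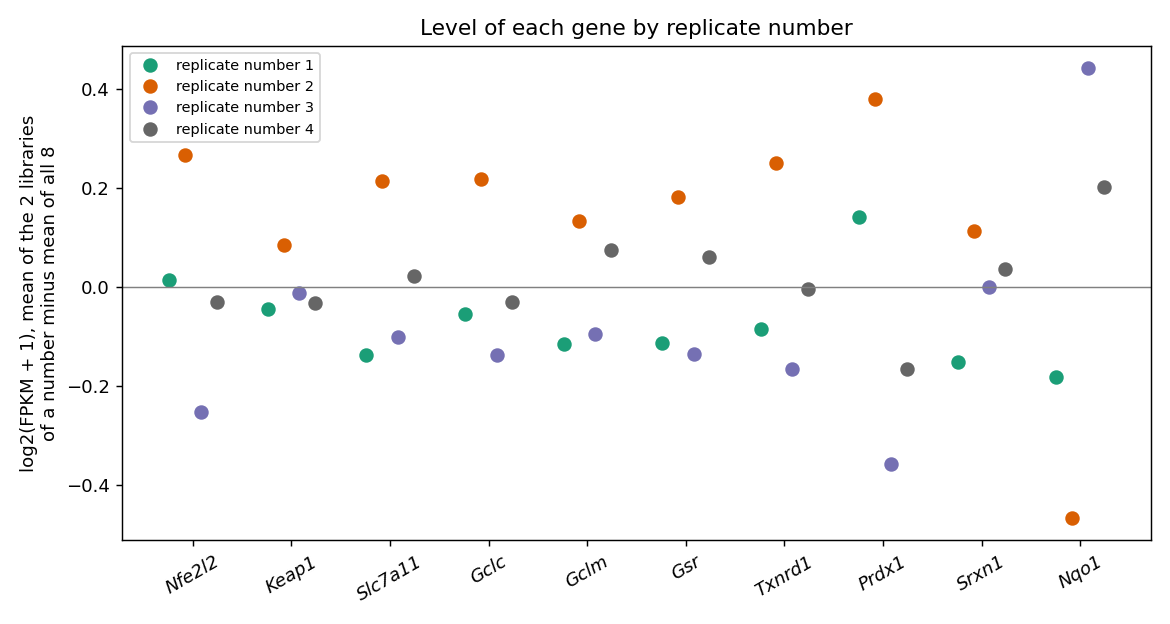
Mean of the 2 libraries of each replicate number minus the mean of all 8, in log2(FPKM + 1), for each gene. Number 2 is the highest point for 9 genes and the lowest for Nqo1, which is highest in number 3.

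Levels can be ordered because FPKM is scaled to transcript length. Over the 8 libraries the mean was 258 ± 57.3 FPKM for Prdx1 (SD), then 37.5 ± 9.77 for Nqo1, 33.1 ± 4.96 for Nfe2l2, 23.6 ± 3.11 for Txnrd1, 17.4 ± 1.81 for Srxn1 and 16.8 ± 0.838 for Keap1. Gclm followed at 9.97 ± 0.977, Gsr at 8.06 ± 0.963, Gclc at 6.97 ± 0.873 and Slc7a11 at 2.22 ± 0.370 FPKM. Nqo1 and Nfe2l2 did not keep an order, with Nqo1 above in 4 of 8 libraries, and Srxn1 was above Keap1 in 5 of 8. Nqo1 was above Txnrd1 in 6 of 8 libraries and below it in both replicate 2 libraries. Every other pair of the 10 genes kept its order in all 8 libraries.

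Nqo1 stood apart from the other 9 in its profile as well. Over the 8 libraries, its Pearson r with them was between −0.89 (Prdx1) and −0.062 (Srxn1) on the log2(FPKM + 1) scale, and −0.85 with Nfe2l2. The genes most like Nqo1 were Myh14 (r = 0.993), Cspg4 (0.990), Prr5 (0.985), Tpd52l1 (0.983) and Pir (0.983). All 5 were lowest in number 2 and highest in number 3, as Nqo1 was. They were picked for a high r with Nqo1 over these same libraries, so the shared order follows from that choice. The libraries share replicate numbers, so these are descriptions over 8 points that are not independent.

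The rest of the pathway was read from 87 further genes in 8 lists, of which 82 had a mean of at least 1 FPKM and were tested. In the fit with the block 15 rose and 2 fell (12.4% and 2.83% of all genes did so). Without the block 1 rose, Gsta1, and 0 fell by limma; 5 of the 82 had an unadjusted p under 0.05, as did 8.59% of all genes. With the block and median-centred libraries 5 rose and 4 fell (4.99% and 4.32% of all genes), and with quantile normalization 7 rose and 4 fell (4.78% and 4.62%). Over all genes the blocked split was 1436 higher and 329 lower, but 579 and 502 with median-centred libraries. Without replicate 2, the blocked count was 33 higher and 5 lower (24.5% and 4.64% of all genes). Without replicates 1, 3 and 4 the blocked count was 2, 3 and 2 higher and 0 lower. In those 3 fits, 137, 264 and 88 of all genes were higher and 93, 153 and 82 lower. The number of calls thus moved over all genes as well.

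Conjugation and carbonyl detoxification genes held most of these calls, with 9 of 18 tested genes higher in the blocked fit and 0 lower (median log2 fold change 0.21). Over all genes, 12.4% were higher and 2.83% lower in that fit. The lists were chosen with earlier results of these data known, so these shares are descriptions and not a test of the list. With the block, 3 of the 18 were higher with median-centred libraries, 4 with quantile normalization and 11 without replicate 2. Over all genes, 4.99%, 4.78% and 24.5% were higher in these fits. Gsta1, a glutathione S-transferase, had between 5.15 and 7.76 FPKM in the 4 miR-204 libraries, against between 1.26 and 2.80 FPKM in the 4 miR-Ctrl libraries. These groups did not overlap (4.32% of all genes lay wholly higher), and the log2 fold change was 1.31 (adjusted p = 0.0325, with the block 0.00829). Without the block, the call was lost on leaving out any single library but miR-Ctrl replicate 2, with adjusted p-values from 0.0823 to 0.158. In the fits that lost it in this way, 0 of all genes tested were called higher. Gsta1 passed in 4 of 16 alternatives without the block. It passed in 8 of 8 fits with the block, including each that left out a replicate number, with adjusted p-values by limma from 0.00462 to 0.0475. Its annotated neighbours Gm3776 and Gsta2 match it at 99.5% and 97.3% identity, so its reads may be shared with them.

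Gsta4, which conjugates lipid aldehydes, averaged 10.6 ± 4.71 FPKM with miR-204 and 5.34 ± 2.61 FPKM with miR-Ctrl (SD, n = 4 each; log2 fold change 0.90, adjusted p = 0.575, with the block 0.00750). Gsta4 passed in 8 of 8 fits with the block and in 0 of 17 alternatives without it. Ephx1, the microsomal epoxide hydrolase, averaged 134 ± 16.6 FPKM with miR-204 and 105 ± 23.4 FPKM with miR-Ctrl (0.36, with the block adjusted p = 0.0204). Aldh1a1, an aldehyde dehydrogenase, was at 0.38 (with the block adjusted p = 0.0338, with median-centred libraries 0.0769). The others that rose with the block were Gstm1, Mgst1, Cbr1, Aldh3a1 and Abcc1, named because the list's count rests on them.

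Of 7 heme and iron genes, 3 rose and 1 fell in the blocked fit (12.4% and 2.83% of all genes did so). Hmox1, heme oxygenase 1, averaged 145 ± 19.1 FPKM with miR-204 and 121 ± 24.3 FPKM with miR-Ctrl (log2 fold change 0.26, with the block adjusted p = 0.0450). Blvrb, a biliverdin reductase, was at 0.31 (adjusted p = 0.0163) and Ftl1, ferritin light chain, at 0.21 (adjusted p = 0.0377). Abcb6, a porphyrin transporter, fell by 0.26 on the log2 scale (adjusted p = 0.0193). With median-centred libraries Hmox1 (adjusted p = 0.0961) and Ftl1 (0.116) did not pass. Ftl1 has 7 other annotated genes or pseudogenes at 95% identity or more, so its level is uncertain.

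Of 6 NADPH supply genes, Me1, malic enzyme, rose with the block: it had 73.3, 77.3, 77.9 and 73.3 FPKM in miR-204 libraries 1 to 4, against 64.1, 69.7, 65.8 and 65.1 FPKM in miR-Ctrl libraries 1 to 4. The groups did not overlap (log2 fold change 0.19, adjusted p = 0.327, with the block 0.0212, with median-centred libraries 0.0592). Of the 82 tested list genes, 2 lay wholly higher with miR-204 (Gsta1 and Me1), against 4.32% of all genes. Me1 has 3 other annotated genes or pseudogenes at 95% identity or more, so its level is uncertain. Of 10 thioredoxin and peroxiredoxin genes, Prdx6 rose with the block (0.24, adjusted p = 0.0108, with median-centred libraries 0.0291). Among 10 regulators and partners, Sqstm1, whose protein competes with NRF2 for KEAP1, rose with the block (0.20, adjusted p = 0.0449, with median-centred libraries 0.110), and part of its transcript overlaps Mrnip. With the block, 12.4% of all genes were higher. The regulator list had 0 higher and 2 lower under the block with median-centred or quantile-normalized libraries (4.32% and 4.62% of all genes were lower). The 2 lower genes were Mafk, a small MAF partner of NRF2, and Cul3, the ligase scaffold, both named after their values were seen. Mafk averaged 7.13 ± 0.410 FPKM with miR-204 and 8.01 ± 0.181 FPKM with miR-Ctrl (SD, n = 4 each), lower in 4 of 4 pairs. Mafk was the 1 gene of the 82 that lay wholly lower, against 1.58% of all genes. Its log2 fold change was −0.15 with the block (adjusted p = 0.0677) and −0.21 with median-centred libraries (adjusted p = 0.0322). Cul3 was at −0.12 with the block (adjusted p = 0.0700) and −0.18 with median-centred libraries (adjusted p = 0.0339).

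In the remaining lists few or no genes passed. Of 15 genes of glutathione use, 0 passed by limma with the block (7 had an unadjusted p under 0.05, as did 35.6% of all genes). The most abundant, Gpx4 and Slc3a2, were at log2 fold changes of 0.19 and 0.091. Gpx4-ps2 matches Gpx4 at 99.7% identity over 733 bases, so the reads of Gpx4 may be shared with it. Of 4 superoxide and peroxide enzymes 0 passed (1 at an unadjusted p under 0.05). Sod1 was at 0.10, and the processed pseudogene Gm8566 matches it at 97.85% identity over 465 bases. Sod3 was at 0.024, though its mean FPKM was 105 ± 65.9 with miR-204 and 132 ± 140 with miR-Ctrl (SD, n = 4 each). Of 12 ATF4 and amino acid stress genes, Trib3 fell with the block, by 0.15 on the log2 scale (adjusted p = 0.0414). Over all genes, 2.83% were lower with the block.

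**Figure D4:**
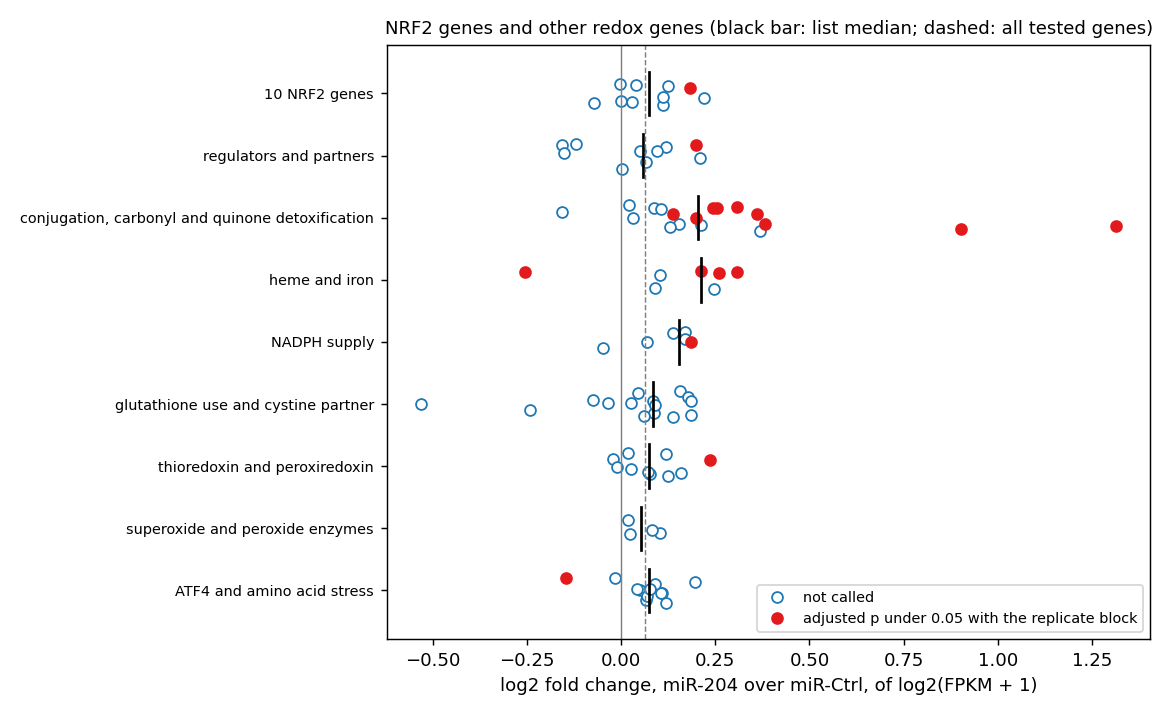
Log2 fold change, miR-204 over miR-Ctrl, of the 10 NRF2 genes and of the tested genes in each of the 8 redox lists; red points had an adjusted p under 0.05 with the replicate block, black bars are list medians and the dashed line is the median of all tested genes. Red points are most numerous in the conjugation and carbonyl detoxification list, where Gsta1 and Gsta4 lie farthest to the right. The lists were chosen with earlier results of these data known.

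Among markers of other cell types, 1 gene in each of 3 lists passed with the block, all higher (12.4% of all genes were), and of these Acta2 also passed without it. Cd68, a macrophage marker, had 4.75, 4.74, 3.49 and 2.76 FPKM in miR-204 libraries 1 to 4, against 2.00, 2.22, 0.545 and 1.28 FPKM in miR-Ctrl libraries 1 to 4 (log2 fold change 1.01, adjusted p = 0.247, with the block 0.00997). The summed macrophage list ranged from 8.54 to 16.0 FPKM with miR-204 and from 3.20 to 12.2 FPKM with miR-Ctrl, and Cd68 was the 1 of its 2 tested markers that passed with the block. Its defining markers Ptprc, Csf1r and Itgam were below 0.5 FPKM in every library. The summed smooth muscle and pericyte list ranged from 262 to 381 FPKM with miR-204 and from 166 to 261 FPKM with miR-Ctrl, with Acta2 the 1 of 3 tested markers that passed (log2 fold change 1.01, adjusted p = 0.0242, with the block 0.00320) and Myh11 and Rgs5 below 0.5 FPKM. Fibroblast and synovial markers summed to 1519 to 3487 FPKM with miR-204 and 1569 to 3333 FPKM with miR-Ctrl, and Thy1 was the 1 of 6 that rose with the block (0.42, adjusted p = 0.745, with the block 0.0330). Of 9 chondrocyte markers, Hapln1 (−1.04) and Comp (−0.17) fell with the block (adjusted p = 0.00136 and 0.0401), as did 2.83% of all genes. Hapln1 and Comp did not pass without it (0.531 and 0.947). The summed chondrocyte list ranged from 11701 to 30375 FPKM with miR-204 and from 11685 to 38343 FPKM with miR-Ctrl. Fewer cells of a type and less RNA per cell cannot be told apart in these bulk libraries. The part of these markers in the redox results was not tested.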

How the data were processed

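The authors deposited 1 table of FPKM values (fragments scaled to transcript length and library size) for 8 libraries. Per the labels' protocols, libraries were made with a stranded mRNA kit. The submitters' processing notes name TopHat, Cufflinks 2.2.1 and mm10; the TopHat version, counting mode and filters were not given in the sources used here. Read totals are not given, and FPKM values were not treated as counts. Summed FPKM was 416560 to 490818 per library.

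Genes averaging 1 FPKM or more were tested as log2(FPKM + 1) with limma 3.58.1 in R 4.3.3 (trended prior, two-sided, Benjamini-Hochberg over all genes tested, threshold 0.05). This scale understates changes of low genes. The main test had no block; a fit with the replicate number as a block was the alternative. Same-numbered libraries deviated together from their group means (r = 0.440, 0.816, 0.756 and 0.619 for numbers 1 to 4, over 11612 genes). The highest r of each miR-204 library with a miR-Ctrl library of another number was lower, at −0.028, −0.15, 0.32 and 0.32. The pairing is thus read from the data, not from the labels. Both fits were tested on simulated data. Other alternatives were pseudocount 0.1, no filter or a mean of 5 FPKM, median centring, quantile normalization and leaving out libraries. Loci and 3′ UTRs came from GENCODE M21 (the mm10 assembly), and promoter windows and the miRNA from RefSeq (GRCm38.p6). Near-identical transcripts were found with minimap2 2.31-r1302 (at least 95% identity over 200 bases).

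The 10 genes and the lists were chosen with earlier results of these data known. Beyond the 10 genes, those named from a list were up to 4 passing with or without the block by size of change or, with none passing, the 2 most abundant; genes like Nqo1 were the 5 with the highest Pearson r. The other 5 detoxification genes and the markers were named after their values were seen.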

Additional observations from a re-analysis of the deposited data

Results flagged for a closer look

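A gene's highest or lowest library stood far from the other 3 of its group in 2 of the 52 groups of 4 libraries examined; chance alone flags about 1 in 20 groups. Hmox1 was at 158 FPKM in miR-Ctrl replicate 1, against 107 to 111 FPKM in the other 3 miR-Ctrl libraries. Abcb6 was at 3.06 FPKM in miR-204 replicate 2, against 4.03 to 4.10 FPKM in the other 3 miR-204 libraries.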

How the results depend on the processing

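Without the block, 0 of the 10 NRF2 genes passed in any alternative (Slc7a11 was not tested at a mean of 5 FPKM). With the replicate block the counts of calls were 1 higher and 0 lower among the 10, 15 and 2 among the 82 other redox genes, and 1436 and 329 over all genes, against 3 and 21 over all genes without it. With pseudocount 0.1 and the block they were 1 and 0, 15 and 2, and 1434 and 332. Without a filter on low values they were 0 and 0, 0 and 0, and 0 and 9, and Gsta1 was lost (adjusted p = 0.0804); at a mean of 5 FPKM, where Gsta1 was not tested, 0 redox genes were called. Median centring gave 8 and 55 over all genes, and with the block 5 and 4 redox genes and 579 and 502 over all. Quantile normalization gave 7 and 66 over all genes, and with the block 7 and 4 redox genes and 555 and 536 over all. Leaving out libraries gave 0 to 2 higher among the 10, 0 to 33 higher and 0 to 5 lower among the redox genes, and 0 to 2828 higher and 0 to 535 lower over all genes (0 to 4 higher and 0 to 16 lower without the block). With the block and without replicates 1, 2, 3 and 4, redox genes numbered 2, 33, 3 and 2 higher and 0, 5, 0 and 0 lower; all genes numbered 137, 2828, 264 and 88 higher and 93, 535, 153 and 82 lower. The log2 fold changes that turned sign were all of uncalled genes. With median centring, with or without the block, Gclm was −0.026, Nqo1 −0.037 and Sod3 −0.040, and with quantile normalization −0.026, −0.047 and −0.017. Leaving out libraries, Keap1 ran from −0.036 to 0.037, Slc7a11 from −0.11 to 0.061, Gclm from −0.019 to 0.091, Nqo1 from −0.14 to 0.17, Slc3a2 from −0.0079 to 0.17 and Sod3 from −0.45 to 0.66. With the block, the turned values were 0.018 and 0.028 for Keap1 (without replicates 2 and 3), 0.035, 0.0022 and 0.015 for Slc7a11 (without 1, 3 and 4), −0.0043 for Gclm (without 3), and −0.016, −0.16 and −0.023 for Sod3 (without 1, 3 and 4). The cause of these changes was not tested. Read totals are unknown, so no counting error can be set beside the low values of Slc7a11.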
